A study of Mus musculus with 25 samples.

Results

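Tmem176a and Tmem176b are 2 of the 18896 genes with a RefSeq symbol that were measured in perigonadal white adipose tissue of mice lacking the transcription factor ChREBP, or its β isoform alone. The array carried 3 probes with these gene names, 1 for Tmem176a and 2 for Tmem176b, and all 3 passed into the authors' table of 40561 probes. The genes were chosen by the lower array level of Tmem176b in ChREBPβ KO than in its WT, so the ChREBPβ comparison and every comparison that uses those WT arrays are given as descriptions with no test.

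The tissue came from male C57BL6/J mice that were fasted for 24 h and then refed for 18 h with food and drinking water holding 20% glucose, a treatment given to all groups. ChREBPβ KO mice (n = 6 arrays) had the ChREBPβ-specific exon of Mlxipl deleted with CRISPR/Cas9 in fertilized oocytes and were set against ChREBPβ WT littermates (n = 7), whereas total ChREBP KO mice (n = 5) were Mlxipl-null, lacked the α and β isoforms, and were set against total ChREBP WT (n = 7). Both were whole-body deletions, 2 ChREBPβ lines had been derived in this strain, and the labels do not say which line a mouse came from. Each of the 25 arrays read 1 sample with 1 dye, and the mice's age is not given in the sources used here. Arrays of all groups were present in each of the 4 wash batches.

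All 14 adipocyte genes were well above background on most arrays. So were all 10 liver genes and the 7 measured kidney tubule genes, so detection alone does not bear out the tissue label. Mlxipl itself, read by probe A_55_P2119957, read 15.98 ± 0.16 (log2, SD, n = 7 arrays) for total ChREBP WT against 14.21 ± 0.08 (SD, n = 5 arrays) for the KO (limma, adjusted p 1.11e-08). For ChREBPβ WT it read 15.07 ± 0.27 (SD, n = 7 arrays) against 14.34 ± 0.31 (SD, n = 6 arrays) for ChREBPβ KO, a difference of -0.74 that did not pass the threshold (limma, adjusted p 0.116), and whether this probe lies in the deleted part was not examined. Arrays differed in genes of other tissues. A marker list was scored on each array by averaging, across the genes listed, how far each log2 level stood from that gene's mean over the 25 arrays. The liver score (10 genes, among them Alb, serum albumin) was 0.83 to 4.56 in ChREBPβ WT, -0.70 to 3.91 in ChREBPβ KO, -4.34 to 1.67 in total ChREBP WT and -4.79 to -3.58 in total ChREBP KO. One total ChREBP WT array, replicate 2, had an epididymis score of 5.10, against 1.52 for the next array, and 1 ChREBPβ WT array, replicate 6, had a T cell score of 1.5, against 0.35 for the next. Results are given with and without these arrays where they moved.

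TMEM176A and TMEM176B are small membrane proteins that cross the membrane several times and resemble the MS4A family, to which the B cell antigen CD20 belongs. Their genes lie side by side and are transcribed away from each other. They are known for high expression in dendritic cells, macrophages and monocytes, and TMEM176B has been linked to cation movement in endosomes and phagosomes, to antigen presentation and to restraint of the NLRP3 inflammasome.

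The 3 probes were all read from chromosome 6, with positions on the mm9 build as the array files give them. The first Tmem176b probe, A_55_P1971963, lies at chr6:48783831-48783890 on the minus strand and begins at base 1589 of its transcript, and the second, A_55_P1971962, lies at chr6:48788172-48788231 and begins at base 761. The Tmem176a probe, A_51_P258098, covers chr6:48794756-48795140 on the plus strand, a span of 385 bases for a probe of 60, so it crosses at least 1 intron. No run of 20 bases in any of the 3 was shared, on either strand, with a probe of another gene. The second Tmem176b probe and the Tmem176a probe are shown because they read different parts of different transcripts and so give separate readings of the pair.
Tmem176b, A_55_P1971962: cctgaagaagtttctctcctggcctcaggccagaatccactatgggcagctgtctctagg
Tmem176a, A_51_P258098: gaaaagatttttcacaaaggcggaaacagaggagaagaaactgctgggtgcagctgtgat

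RefSeq (GRCm38.p6) gives Tmem176a 2 start sites and Tmem176b 3, and the closest divergent pair is 48841374 for Tmem176b and 48841483 for Tmem176a. The promoter windows of that pair, from 250 bases before to 50 after each start site, overlap over 208 bases. The 108 bases between these start sites, chr6:48841375-48841482 on the plus strand of GRCm38.p6, are shown because they stand upstream of both genes, with the ETS core GGAAGT (bound by PU.1 and its relatives) in capitals.
Tmem176b to Tmem176a: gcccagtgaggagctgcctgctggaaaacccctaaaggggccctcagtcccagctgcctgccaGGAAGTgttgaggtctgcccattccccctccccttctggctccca
GGAAGT occurred once in this stretch. Counted on either strand of the longer promoter windows, it occurred 1 time for Tmem176a and 2 times for Tmem176b, and 24.1% of 27025 mouse promoter windows held it. CACGTG, the E-box bound by ChREBP and Mlx, was not in either window of the pair and was in 7.24% of all windows. TATAAA was absent too (14.2% of windows). No match says only that these letters are not in these windows.

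Tmem176b was strongly expressed in every group and highest in ChREBPβ WT. By its first probe, the log2 level ran from 14.43 through a median of 14.79 to 15.02 in ChREBPβ WT, and from 13.99 through 14.28 to 14.64 in ChREBPβ KO. In total ChREBP WT it ran from 14.11 through 14.29 to 14.57. The 5 total ChREBP KO arrays read 14.36, 14.12, 14.13, 14.26 and 13.83. Thus 5 of 6 ChREBPβ KO arrays and 6 of 7 total ChREBP WT arrays lay below the lowest ChREBPβ WT array. The remaining array of each group lay inside the ChREBPβ WT range, so these groups overlapped. The total ChREBP groups overlapped too, with a single KO array of 5 under the WT range. The probe was well above background on 25 arrays and saturated on none, with raw intensities from 12195 to 34211.

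The second Tmem176b probe also had its highest mean in ChREBPβ WT. Its log2 level ran from 9.73 through 10.37 to 10.58 in ChREBPβ WT, from 9.06 through 9.83 to 10.21 in ChREBPβ KO and from 9.73 through 10.07 to 10.43 in total ChREBP WT. The 5 total ChREBP KO arrays read 9.94, 9.76, 9.85, 9.94 and 9.35. All 4 groups overlapped by this probe, with 2 of 6 ChREBPβ KO arrays and 0 of 7 total ChREBP WT arrays below the lowest ChREBPβ WT array.

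Tmem176a showed the same arrangement. Its log2 level ran from 10.45 through a median of 10.73 to 11.32 in ChREBPβ WT and from 9.66 through 10.21 to 10.77 in ChREBPβ KO. In total ChREBP WT it ran from 9.77 through 10.07 to 10.97, and the 5 total ChREBP KO arrays read 10.09, 9.88, 9.83, 9.96 and 9.63. Of the ChREBPβ KO arrays, 5 of 6 were below all ChREBPβ WT arrays, as were 6 of 7 total ChREBP WT arrays. The exception among total ChREBP WT was replicate 2, at 10.97, the array with the epididymis genes, and the other 6 reached no higher than 10.25.

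**Figure D1:**
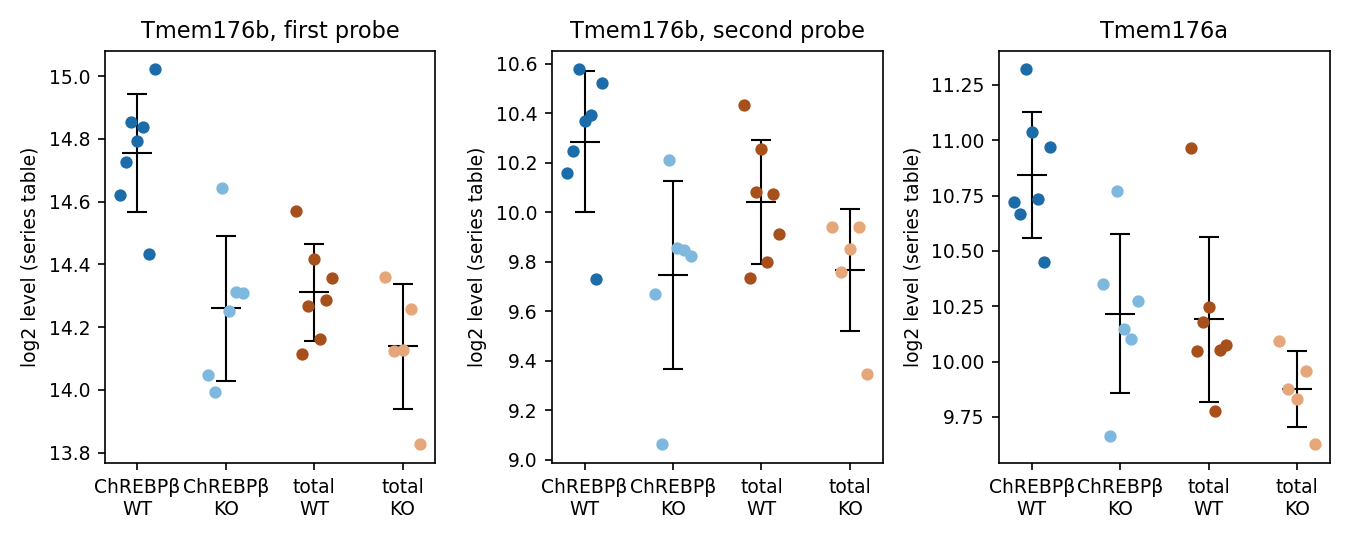
Log2 levels of the 3 probes on each array (points) with the mean and SD of each group (bars) for the 4 groups. ChREBPβ WT has the highest mean in each panel, 14.76, 10.28 and 10.84, and its range overlaps those of ChREBPβ KO and total ChREBP WT. The other groups also overlap with one another.

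The comparison that chose the pair is given first, with no test. Tmem176b was 0.697 times its WT level in ChREBPβ KO by the first probe, a log2 difference of -0.52 (SE 0.08), and 0.673 times by the second, -0.57 (SE 0.13). Tmem176a was 0.632 times its WT level, -0.66 (SE 0.14). Over all probes, 0 of 40561 passed an adjusted p of 0.05 with limma in this comparison (0.0% of probes, with 3659, or 9.02%, at an unadjusted p under 0.05). Differences as low as those of the first Tmem176b probe, the second and Tmem176a were seen in 999, 904 and 743 probes. Within the wash batches the first probe differed by -0.48, -0.73, -0.27 and -0.62, the second by -0.53, -1.18, -0.09 and -0.63, and Tmem176a by -0.62, -1.0, -0.44 and -0.67. With the liver score as a covariate, a setting chosen after the values were seen, the differences were -0.49, -0.51 and -0.56, and with the leukocyte score they were -0.52, -0.57 and -0.66.

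Whether the pair also responded to loss of all ChREBP was tested in the separate total ChREBP line. Neither gene passed the threshold there, although 8.79% of all probes did (3564 of 40561, 2169 higher and 1395 lower). The first Tmem176b probe was 0.887 times its WT level in total ChREBP KO, a log2 difference of -0.17 (SE 0.09, 95% interval -0.36 to 0.01, limma adjusted p 0.288). The second was -0.28 (SE 0.14, interval -0.57 to 0.00, adjusted p 0.253). Tmem176a was 0.794 times its WT level, -0.33 (SE 0.15, interval -0.64 to -0.03, adjusted p 0.189). All 5 KO arrays were below the WT mean of 10.19, which includes replicate 2 at 10.97. The highest KO array, at 10.09, was above the WT median of 10.07.

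The size of the Tmem176a difference rested in part on the total ChREBP WT array with the epididymis genes: without it the difference was -0.22 (adjusted p 0.304). With the epididymis score as a covariate it was -0.04 (SE 0.10, adjusted p 0.889), and with the liver score it was -0.13 (SE 0.15, adjusted p 0.772). The first Tmem176b probe went to -0.09 and -0.12 under the same covariates. Both covariates were chosen after the values were seen, and the epididymis score was the marker score that Tmem176a followed most closely across arrays. Both scores also had a higher mean in total ChREBP WT than in KO, so these fits can take up part of the genotype difference itself. The part of epididymis and liver transcripts in the difference was not tested. Within wash batch 2, which held 1 array of each group, the Tmem176b probes were 0.01 and 0.12 higher in KO. In the other batches they were lower, and Tmem176a was lower in all 4, by -0.30, -0.22, -0.29 and -0.43.

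**Figure D2:**
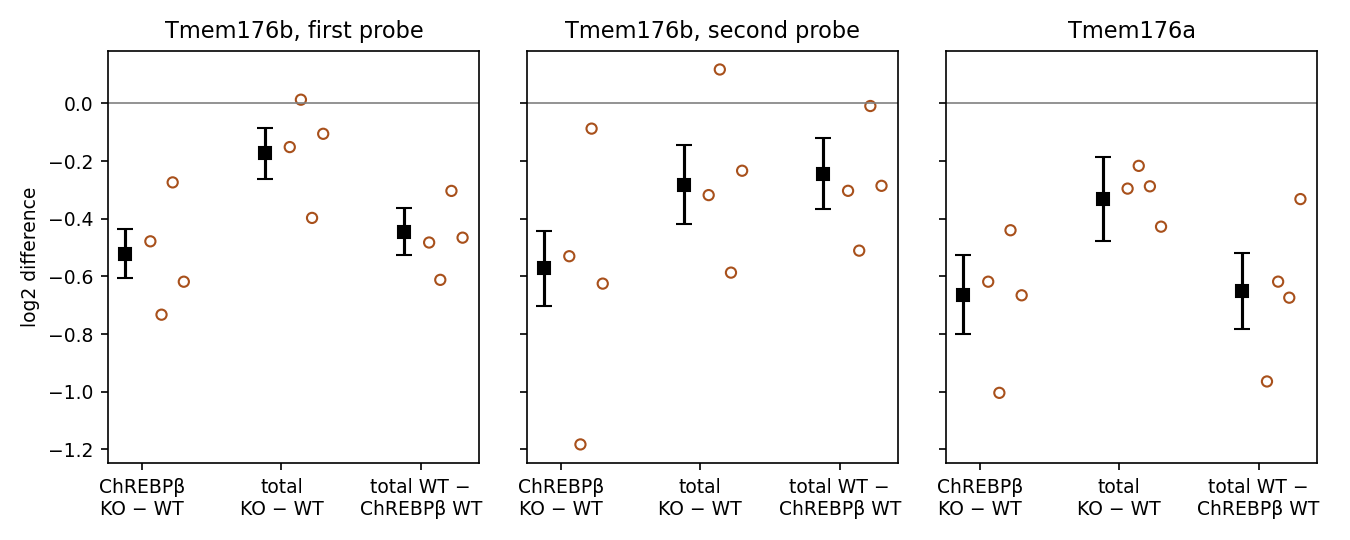
Log2 differences of the 3 probes in 3 comparisons, with fitted values and SE (squares and bars) and the value within each of the 4 wash batches (open circles). The ChREBPβ comparison sits between -0.52 and -0.66 and the total ChREBP comparison between -0.17 and -0.33.

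The total ChREBP WT means of both genes also lay under those of ChREBPβ WT. Total ChREBP WT was 0.735 times ChREBPβ WT for Tmem176b by the first probe, a log2 difference of -0.45 (SE 0.08), and -0.24 (SE 0.12) by the second. Tmem176a was 0.637 times, -0.65 (SE 0.13). These differences share the ChREBPβ WT arrays with the comparison that chose the pair and carry no test. Between the wild types 22.0% of all probes passed the threshold (8912 of 40561). That count fell to 3004 once the liver score was a covariate, and to 0 with the liver, kidney tubule and epididymis scores together. Colony, line and wild type cannot be told apart. All 10 liver genes were called lower in total ChREBP WT (7.26% of all probes were), with a median of -5.06. With the liver score as a covariate the Tmem176a difference went to -0.25 (SE 0.19) and that of the second Tmem176b probe to -0.01 (SE 0.20), whereas the first probe stayed at -0.34 (SE 0.13). With the epididymis score as a covariate the Tmem176a difference was instead -0.98 (SE 0.09), and the Tmem176b probes stood at -0.54 and -0.41. With the 3 scores together the differences were -0.58, -0.36 and -0.79. Without the 2 arrays that stood apart, the 3 differences were -0.47, -0.29 and -0.80. The part of liver and epididymis transcripts in them was not tested. The difference between the knockout effects, total ChREBP minus ChREBPβ, was 0.35 (SE 0.12), 0.29 (SE 0.19) and 0.33 (SE 0.20), also without a test.

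Tmem176a and Tmem176b varied together from mouse to mouse within groups. This relation did not use the group differences: each level was first reduced to its deviation from the fitted means of its group and wash batch. Across 25 arrays the deviations of the first Tmem176b probe and Tmem176a had a Pearson r of 0.64 (permutation test within groups, p 0.00076) and a Spearman rho of 0.68 (p 0.00083), and r was 0.56 without the 2 arrays farthest from the median. Between the levels themselves, within groups of 6 or more arrays, r was 0.71 in ChREBPβ WT (exact permutation p 0.0758), 0.79 in ChREBPβ KO (exact p 0.0944) and 0.86 in total ChREBP WT (exact p 0.0111). Between deviations from the group means alone it was 0.65, 0.78, 0.67 and 0.75 within the wash batches (8, 4, 6 and 7 arrays). The second Tmem176b probe had an r of 0.73 with Tmem176a and of 0.88 with the first probe (smallest p the resampling can give, 1e-05). Leaving out any single array kept r between 0.54 and 0.71.

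**Figure D3:**
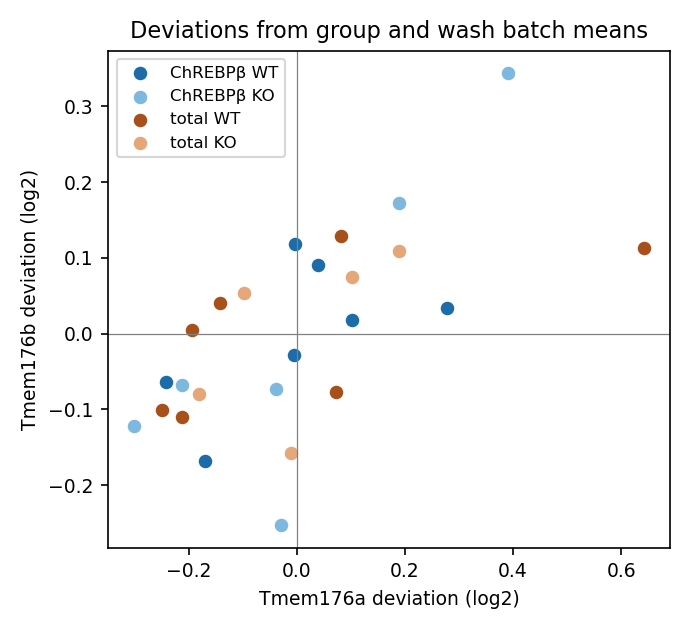
Deviation of Tmem176b (first probe) against that of Tmem176a on 25 arrays, each from its fitted group and wash batch mean, with points coloured by group. The points rise together, with a Pearson r of 0.64.

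The pair is known from leukocytes, so its deviations were set against the scores of 18 marker lists, 36 relations in all, with p-values adjusted over the 36. For Tmem176b none of the 18 passed with the permutation test. The leukocyte list (13 genes, among them Ptprc, which encodes CD45) had an r of -0.13 (adjusted p 0.588) and the macrophage list (22 genes) an r of 0.41 (adjusted p 0.154, rho 0.57). Mast cell genes stood at 0.54 (adjusted p 0.0794) and endothelial genes at -0.52 (adjusted p 0.0828). The dendritic cell list stood at -0.17 (adjusted p 0.453) and the monocyte list at -0.23 (adjusted p 0.448). By rho the lowest p was that for macrophage genes (permutation p 0.00596, adjusted p 0.0715). Endothelial genes (rho -0.51, permutation p 0.0195) and NK cell genes (rho -0.43, permutation p 0.0273) followed, and none passed after adjustment. By r, 3 of the 18 had an unadjusted p under 0.05, those for mast cell, endothelial and epididymis genes. The call of none depended on single arrays: with each array left out in turn, 0 to 3 lists passed, with 3 without total ChREBP WT replicate 7, 2 without ChREBPβ WT replicate 7, and 1 each without ChREBPβ WT replicate 8, total ChREBP KO replicate 7 and total ChREBP WT replicate 4.

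For Tmem176a 3 of the 18 lists passed. The epididymis score was higher where Tmem176a was higher (r 0.84, rho 0.75, adjusted p 0.00036), and the adipocyte score (r -0.68, rho -0.59, adjusted p 0.0169) and the endothelial score (r -0.57, rho -0.54, adjusted p 0.0216) were lower there. Single genes did not all follow their score: 3 of 14 adipocyte genes had a positive r with Tmem176a (Cfd 0.38, Lpl 0.21 and Cidec 0.17; median of the list -0.33), as did 1 of 12 endothelial genes (Vwf 0.12; median -0.47). By rho the epididymis relation passed (adjusted p 0.00828) and the other two did not (adjusted p 0.0715 and 0.0824). Without the 2 arrays that stood apart, r was 0.76 for epididymis genes (adjusted p 0.00936), -0.51 for adipocyte genes (adjusted p 0.136) and -0.54 for endothelial genes (adjusted p 0.136). Only the first kept its call there, while the NK cell list then passed (r -0.69, adjusted p 0.0146). The epididymis call was lost in 1 other setting. Its r was lowest, at 0.62, with deviations from the group means alone, and its adjusted p reached 0.0942 over the settings. The adipocyte r went to -0.41 with the median over the genes of a list, and its adjusted p reached 0.245 over the settings. The leukocyte list stood at -0.03 (adjusted p 0.910) and the macrophage list at 0.20 (adjusted p 0.478). Both turned on the arrays that stood apart. The leukocyte r was -0.31 without total ChREBP WT replicate 2, 0.26 without ChREBPβ WT replicate 6 and -0.24 without both. The macrophage r was 0.07, 0.38 and 0.22, and none of these passed the threshold. The dendritic cell list stood at -0.49 (adjusted p 0.0794), and at -0.15 without both arrays (adjusted p 0.718). The monocyte list stood at 0.27 (adjusted p 0.411), and at -0.21 without both (adjusted p 0.537).

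The epididymis score held 3 measured genes of a list of 10. Adam7, a membrane protein of the epididymal lining, had an r of 0.89 with Tmem176a, and Crisp4, a secreted epididymal protein, had 0.68, but Rnase10 had -0.74. Adam7 was well above background on 17 arrays and Crisp4 on 9. Between levels within groups, r was 0.06 in ChREBPβ WT, 0.60 in ChREBPβ KO and 0.88 in total ChREBP WT. The last rested on replicate 2: rho was 0.39, and without that array r was 0.05. For deviations from the group means, r was 0.89, 0.93, 0.48 and 0.95 within the wash batches, which held 8, 4, 6 and 7 arrays. Replicate 2 of total ChREBP WT is in batch 4, the last of these.

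**Figure D4:**
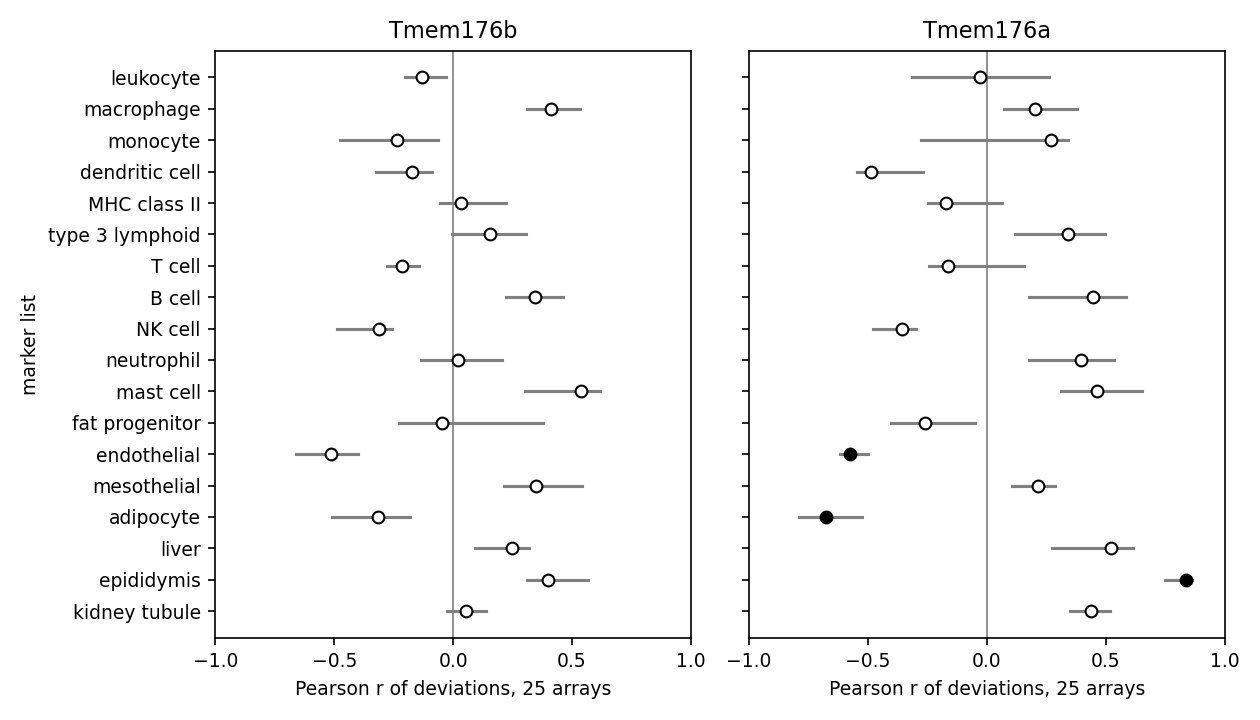
Pearson r between deviations of each gene and the score of 18 marker lists over 25 arrays (circles, filled where the adjusted p is under 0.05), with the range over leaving out each array (lines). Filled circles are seen for Tmem176a alone, at epididymis, adipocyte and endothelial genes.

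Within single groups, 111 relations were computed by exact permutation. None passed after adjustment (lowest adjusted p 0.0881), and 19 had an unadjusted p under 0.05. The strongest was in total ChREBP WT, where Tmem176b followed the leukocyte score across 7 arrays (r 0.97, exact p 0.000794) and Tmem176a did so too (r 0.90, exact p 0.00337). Without replicate 2 these were 0.93 (exact p 0.00833) and 0.76 (exact p 0.0681). In ChREBPβ WT the same relations were 0.06 and -0.19, and in ChREBPβ KO -0.29 and -0.24. The difference between these groups was not tested. In bulk tissue, fewer cells of a type and less RNA per cell cannot be told apart.

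**Figure D5:**
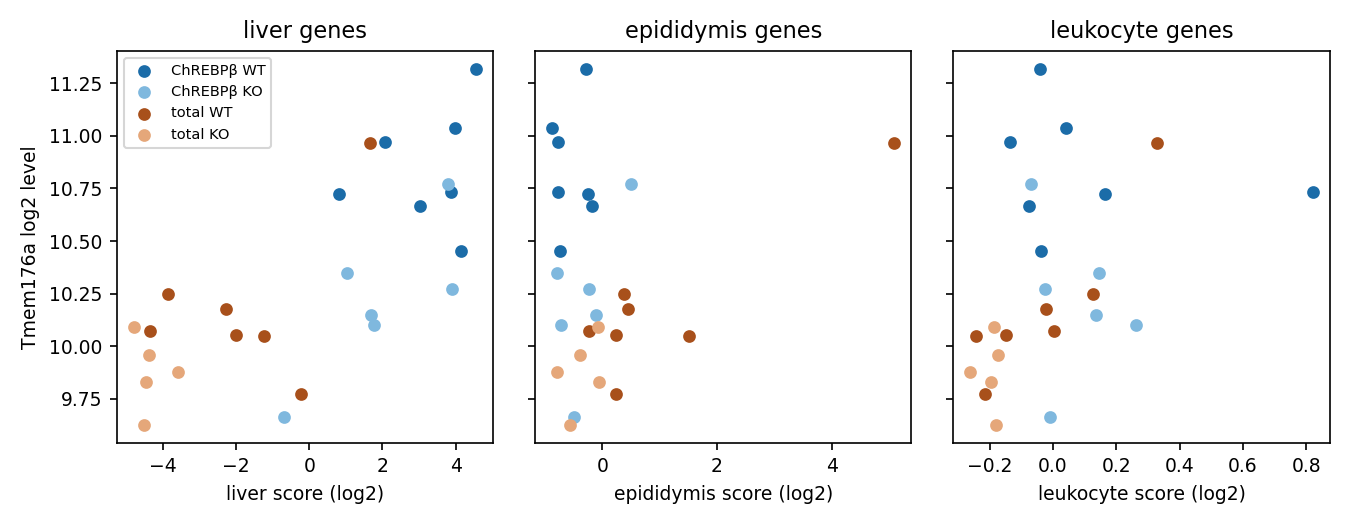
Tmem176a log2 level on 25 arrays against the score of liver, epididymis and leukocyte genes, coloured by group. The total ChREBP WT array at an epididymis score of 5.10 has a Tmem176a level of 10.97, the highest of its group, and the liver scores of total ChREBP KO lie between -4.79 and -3.58.

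In total ChREBP KO against WT, 0 of 13 leukocyte genes and 0 of 22 macrophage genes passed with limma, where 8.79% of all probes did (0 and 6 at an unadjusted p under 0.05, where 20.3% of all probes were), with medians of -0.16 and -0.20 beside 0.02 over all probes. In ChREBPβ KO against WT the macrophage median was -0.20, with 0 of 22 past the threshold, as for all probes (4 unadjusted), and the leukocyte median was -0.06. With the macrophage score as a covariate the first Tmem176b probe differed by -0.47 in the ChREBPβ line and by -0.11 in the total line. Between the wild types 0 of 13 leukocyte genes and 1 of 22 macrophage genes passed, where 22.0% of all probes did.

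The following defining markers of these cells did not pass in total ChREBP KO. Ptprc differed by -0.13 (adjusted p 0.394), Adgre1, which encodes the macrophage marker F4/80, by -0.16 (adjusted p 0.600), and Cd68, a lysosomal protein of macrophages, by -0.14 (adjusted p 0.75). Itgax, the dendritic cell integrin CD11c, stood at 0.29 (adjusted p 0.629) and Cd74, the chaperone of class II molecules, at 0.11 (adjusted p 0.821). Cd3e of the T cell receptor complex stood at 0.09 (adjusted p 0.846) and Cd79a of the B cell receptor at -0.02 (adjusted p 0.961).

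The following list genes were called in total ChREBP KO, where 8.79% of all probes were. Il1r1, the interleukin-1 receptor, fell by 0.31. Among dendritic cell genes 4 of 15 passed: Irf8 (0.63), Itgae (0.62) and Flt3 (0.36) rose, and Clec10a, a lectin of myeloid cells, fell by 0.52. Jchain, the joining chain of secreted antibodies, rose by 1.82, and Ly6g, a neutrophil marker, fell by 0.56. Among adipocyte genes 5 of 14 passed: Adrb3 (1.25), Lpl (0.58), Plin1 (0.43) and Cidec (0.39) rose, and Slc2a4, the insulin-responsive glucose transporter, fell by 1.40. Among fat progenitor genes F3, which encodes tissue factor, fell by 1.35 and Ly6a, which encodes Sca-1, by 0.49, and the endothelial water channel Aqp1 rose by 0.48. The liver fibrinogen gene Fgb fell by 3.89, and Fgg fell by 3.66.

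The relatives and the pathways of the pair were read in the same comparison, and their shares of called genes lay near the 8.79% of all probes or below it. Of the Ms4a family, 0 of 13 measured members passed with limma in total ChREBP KO (1 unadjusted), with a median of -0.23. Of the inflammasome genes, 2 of 19 passed: Naip5, a sensor of bacterial proteins, rose by 0.27, and Il18bp, a secreted inhibitor of interleukin-18, fell by 0.66. Nlrp3 did not pass (adjusted p 0.990). Of the genes for cation and proton handling in phagosomes, 1 of 14 passed, Hvcn1, a voltage-gated proton channel, which fell by 3.62 (SE 0.21). In ChREBPβ KO against WT none of these 3 lists had a called gene (0, 2 and 1 unadjusted), and Hvcn1 stood at 0.01.

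In the 500 kb on either side, 27 other genes were measured, among them Gimap genes of lymphocytes. In total ChREBP KO 0 of 27 were called lower (3.44% of all probes were) and 4 were called higher (5.35% of all probes were): Zfp467 (0.70), Rarres2, which encodes chemerin (0.58), Atp6v0e2, a subunit of the vacuolar proton pump (0.53), and Zfp862-ps (0.45). Their median difference was 0.13 there and 0.05 in the ChREBPβ line. Between the wild types 4 of 27 were called, where 22.0% of all probes were, Atp6v0e2 (-0.77), Rarres2 (-0.74) and Zfp862-ps (-0.33) lower and Lrrc61 (0.35) higher. The nearest of them, Gm7932, at 20.7 kb, had an r of 0.23 with Tmem176b and 0.24 with Tmem176a.

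The genes most like each member were then listed over 18894 other genes by the r of deviations on 25 arrays, as a description. For Tmem176b they were Fzd10, a Wnt receptor (0.79), Nubp1 (0.78), Mrpl52, a mitochondrial ribosomal protein (0.76), Gm5643 (0.76), Pla2g3 (0.75), Ms4a2, the β chain of the mast cell IgE receptor and itself of the Ms4a family (0.75), Usp1 (0.74), Gm5766 (0.73), Nme2 (0.73) and Prokr1 (0.72). The least like were Olfr141 (-0.80), Gm17745 (-0.80) and Nova2 (-0.79). Tmem176a ranked 91 in that order, at 0.64.

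For Tmem176a the list was led by Tmem258, a subunit of the oligosaccharyltransferase (0.93), followed by Adam7 (0.89), Ssr4, a subunit of the translocon-associated complex (0.86), Zkscan1 (0.86), Alpl, an alkaline phosphatase (0.85), Sec61g, a subunit of the translocon (0.84), Spag11b, a defensin-like protein of the epididymis (0.82), Capn3 (0.81), Cope, a coatomer subunit (0.80), and Ergic2 (0.80). The least like were Rrp7a, Ccnd3 and Nfe2l1, all at -0.87. Tmem176b ranked 248, and the 100 genes most like each member shared 7. None of the 13 leukocyte genes and none of the 22 macrophage genes was among either 100. Each 100 is a small part of 18894 genes, so 0 in lists this short says little. Of the 8 monocyte genes 1 was in both, Ace, with an r of 0.64 with Tmem176b and 0.71 with Tmem176a. It stood apart from its list, whose median r was -0.295 with Tmem176b and -0.005 with Tmem176a.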

How the data were processed

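RNA (200 ng) of 25 tissues was labelled with Cy3 and hybridised to Agilent SurePrint G3 Mouse GE v2 8x60K arrays. The authors extracted spot intensity with Feature Extraction 10.10.1.1 and deposited a table of normalized log2 values for 40561 probes, processed with limma per the labels. These log2 values were the main source. Deposited intensity values (raw array medians 84 to 127, with 73 to 77.9% of spots well above background) served for detection calls and as an alternative. The number of arrays limits the precision.

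Groups came from the titles. All 4 groups were fitted with wash batch in limma 3.58.1 (R 4.3.3), with Benjamini-Hochberg adjustment over all probes and a threshold of 0.05. The fit was tested on simulated data. Relations used deviations from fitted means and 100000 permutations within groups (scipy 1.17.1). The members and lists were chosen with earlier results of these data known. Named genes were the defining markers, called list genes, the 10 genes most like and 3 least like each member, and neighbours within 500 kb; Nlrp3, Alb and the epididymis genes were named after their values were seen. Replicate numbers did not pair the samples. One marker gene is not reported here.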

Additional observations from a re-analysis of the deposited data

Results flagged for a closer look

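Tmem176a on total ChREBP WT replicate 2 lay far above the other 6 arrays of its group: its log2 level was 10.97 and the next was 10.25, a gap of 0.603 of the group's range. The same array had an epididymis score of 5.10, and without it the total ChREBP KO difference of Tmem176a was -0.22. Of 12 group and probe combinations examined this way it was the only one so far apart. Chance gives about 1 in 20 for each combination, so 1 among 12 is no rare event.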

How the results depend on the processing

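Tmem176a and Tmem176b passed the threshold in total ChREBP KO under no alternative run. Within single wash batches the first Tmem176b probe differed there by 0.013 and -0.40, and the second by 0.12; the cause was not tested. In ChREBPβ KO the first probe was -0.73 and -0.27 and Tmem176a -1.0 within batches, and between wild types Tmem176a was -0.96 and -0.33. With score covariates, added after seeing the data, Tmem176a between wild types was -0.25 (liver) and -0.98 (epididymis), and its difference between knockout effects was 0.66 (epididymis). Leaving out single arrays gave -0.21 to -0.12 for the first probe and -0.39 to -0.22 for Tmem176a in total ChREBP KO. With the replicate block they were -0.15 (adjusted p 0.516) and -0.37 (adjusted p 0.137), with 2484 probes called in place of 3564. For Tmem176b 1 list passed with the scanner values and 1 with group means alone, in place of 0. With single arrays left out, 0 to 3 lists passed for Tmem176b and 1 to 4 for Tmem176a in place of 3, with 1 without ChREBPβ KO replicate 3, ChREBPβ KO replicate 4 or total ChREBP WT replicate 2. Calls between wild types went from 8912 to 3004 (liver) and 0 (3 scores), with scores that themselves differed between these groups. In ChREBPβ KO 0 probes were called, but 2 with scanner values, 2 with background-corrected scanner values and 48 with array weights. There were 7 and 6 with the leukocyte and epididymis covariates and 80 without ChREBPβ KO replicate 4. Without total ChREBP KO replicate 7 or total ChREBP WT replicate 2 there was 1 each. Calls in total ChREBP KO ran from 2222 (liver covariate) to 5393 (array weights).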
